A study of Mus musculus with 9 samples.

Results

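The genes described here are the matrix metalloproteinases (Mmp genes), the ADAMTS proteinases (Adamts genes) and the tissue inhibitors of metalloproteinases (Timp genes) of the mouse fracture callus. They were chosen by symbol alone, as every gene of the table whose symbol is Mmp, Adamts or Timp followed by its family number. This gave 46 of the 22054 genes of the table, 23 MMPs, 19 ADAMTS and 4 TIMPs, and all 46 are accounted for. Callus RNA was sequenced after femoral fracture in male C57BL/6J mice, 7 weeks old by the labels, with 3 libraries in each of 3 groups. In all groups the left femur was cut at midshaft and pinned, and injections began the day after surgery and went on daily for 1 week by the intraperitoneal route. The PBS group received PBS, the H-151 group received 750 nmol of H-151, an inhibitor of the innate immune adaptor STING, and the SR-717 group received SR-717, a STING activator, at 30 mg/kg, in volumes of 200 µl. The labels call the libraries of a group replicate biosamples and do not tie them to named mice, so p-values measure the spread between these samples. The comparisons ask whether blocking or activating STING during early healing went with different levels of these matrix enzymes and their inhibitors.

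Fracture callus is first a soft, cartilage-rich tissue and is then replaced by bone. Its matrix is taken apart by zinc-dependent proteinases that are secreted or anchored in the membrane as inactive precursors: collagenases cut fibrillar collagen, gelatinases cut denatured collagen, stromelysins have broad substrates and activate other MMPs, and ADAMTS enzymes cut proteoglycans such as aggrecan or trim procollagen. TIMPs bind the active site of MMPs, and Timp3 also blocks several ADAMTS enzymes. In bone, Mmp9 is known as an osteoclast enzyme and Mmp13 as an enzyme of hypertrophic chondrocytes and osteoblasts, and Mmp8 is stored in neutrophil granules.

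Depth ran from 16987398 to 23272480 expected counts in a library. SR-717 replicate 1 stood apart from the other 8 libraries: on the first principal component, which held 46.6% of the variance, it lay at 101, PBS replicate 1 lay at 38.8, and the other 7 lay between -28.8 and -4.03. Genes of osteoclasts, neutrophils, macrophages, chondrocytes, osteoblasts, periosteal fibroblasts, endothelium and skeletal muscle were present in all 9 libraries. Of the keratinocyte keratins, Krt5, Krt14 and Krt1 were listed at 0 in at least 1 library. Krt10 was present in all 9 libraries, lowest in SR-717 replicate 1 (1.34) and highest in PBS replicate 3 (20.8, on the TPM scale explained next). An inflammatory list of 8 genes (Tnf, Il1a, Il1b, Il6, Nos2, Cxcl2, Cxcl3 and Ptgs2) summed to 2761 TPM (a level scaled for transcript length and to the same total in every library) in SR-717 replicate 1 and to 566 TPM in PBS replicate 1, against 26.4 to 134 TPM in the other 7. Results that rest on these libraries are given with and without them. The extraction protocol in the labels is worded for cell lines, although the labelled tissue is bone.

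A run of 10 Mmp genes lies side by side on chromosome 9, and it holds Mmp3, Mmp8 and Mmp10, the members that varied most between libraries. In the GENCODE annotation of GRCm38 they fill 427 kb, chr9:7272514-7699585, in the order Mmp13, Mmp12, Mmp1b, Mmp3, Mmp1a, Mmp10, Mmp8, Mmp27, Mmp20 and Mmp7, and 3 more members lie elsewhere on the same chromosome. RefSeq start sites of GRCm38.p6 were at hand for 32 of the 46 members, with 250 bases before and 50 bases after each start. The heptamer TGANTCA, the binding motif of the AP-1 (Fos and Jun) transcription factors, was searched on both strands and was in the window of 8 of the 10 cluster genes, all but Mmp8 and Mmp27, in 0 of the 22 other members, and in 7.808% of all 32851 windows of the table. The hexamer TATAAA, the TATA box core, was found on either strand in 9 of the 10 cluster genes, in 2 of the 22 others (Adamts1 and Mmp21) and in 13.62% of all windows. The cAMP response element TGACGTCA, which shares no full match with the AP-1 heptamer, was in 0 of the 32 members and in 1.79% of windows. The 120 bases before the RefSeq start are shown for the 5 cluster genes on which the comparisons below turn, all on the plus strand of GRCm38.p6, 5′ to 3′, with matches to TGANTCA and TATAAA in capitals. A match is a description of the letters and not of a bound site.
Mmp13, chr9:7272394-7272513: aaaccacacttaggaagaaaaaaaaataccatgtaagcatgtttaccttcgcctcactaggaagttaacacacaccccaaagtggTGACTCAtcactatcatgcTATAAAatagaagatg
Mmp3, chr9:7445702-7445821: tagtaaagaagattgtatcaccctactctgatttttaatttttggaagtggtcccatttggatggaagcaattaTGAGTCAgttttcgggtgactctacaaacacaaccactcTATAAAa
Mmp10, chr9:7502222-7502341: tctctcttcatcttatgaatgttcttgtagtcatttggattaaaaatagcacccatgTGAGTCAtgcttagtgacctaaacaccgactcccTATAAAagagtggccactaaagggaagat
Mmp12, chr9:7347254-7347373: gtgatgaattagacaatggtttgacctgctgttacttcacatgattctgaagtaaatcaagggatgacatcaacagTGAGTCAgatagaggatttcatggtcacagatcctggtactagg
Mmp8, chr9:7558309-7558428: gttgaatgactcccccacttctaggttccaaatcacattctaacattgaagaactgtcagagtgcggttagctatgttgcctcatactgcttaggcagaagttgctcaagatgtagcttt

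Mmp3, Mmp10 and Mmp12 shared the same 7 letters, TGAGTCA, and Mmp13 carried TGACTCA. Counted from the base before the start as -1, the heptamer began at -35 in Mmp13, at -44 in Mmp12, at -46 in Mmp3 and at -63 in Mmp10. RefSeq gives Mmp12 more than 1 start, and the heptamer lay before the downstream one shown here and not before the upstream one. In Mmp12 the TATAAA match lay past the start. In Mmp8 it was on the opposite strand, as TTTATA, and ran across the start from -3. Neither match lies whole in the stretch shown, so neither is in capitals.

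**Figure D1:**
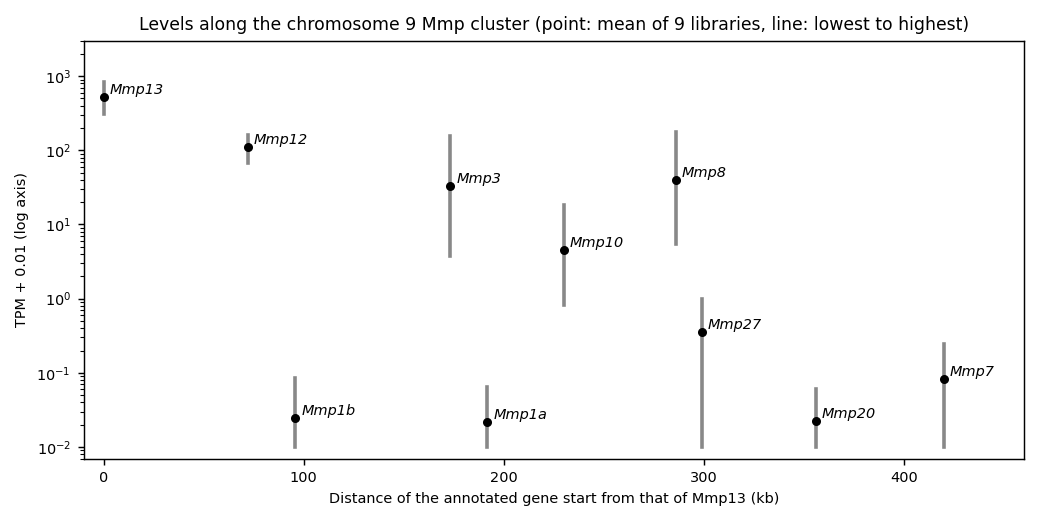
Level of the 10 genes of the chromosome 9 Mmp cluster against the distance of each annotated gene start from that of Mmp13 in kb, with TPM + 0.01 on a log axis; points are means of the 9 libraries and lines run from the lowest to the highest library. Mmp13 and Mmp12 were high in every library, Mmp3, Mmp10 and Mmp8 spanned more than 20 times from lowest to highest, and the other 5 genes stayed below 1 TPM.

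The callus expressed a few of these enzymes at very high levels. On the TPM scale, which is scaled for length and allows genes to be compared, both gelatinases, the membrane-type Mmp14 and the collagenase Mmp13 led: Mmp9 averaged 1517 TPM over the 9 libraries, Mmp2 averaged 1004 TPM, Mmp14, which activates pro-Mmp2 at the cell surface, averaged 575 TPM and Mmp13 averaged 528 TPM. Together these 4 genes made up 82.3% to 93.3% of the summed TPM of the 23 MMPs, the lowest share being that of SR-717 replicate 1. Mmp12 (110.0 TPM), a macrophage elastase, and Mmp23 (96.4 TPM) followed. Among ADAMTS genes the procollagen N-propeptidase Adamts2 led at 67.1 TPM, followed by Adamts10 (24.9 TPM), the aggrecanase Adamts4 (22.6 TPM), Adamts9 (20.2 TPM) and Adamts12 (16.4 TPM). Among inhibitors Timp2 (568 TPM) and Timp1 (563.5 TPM) were far above Timp3 (46.6 TPM), and Timp4 averaged 0.841 TPM. The means of Mmp14 and Mmp13, and those of Timp2 and Timp1, did not differ beyond the spread between libraries.

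Several members were at or near the detection limit in this tissue. Mmp1a and Mmp1b, the mouse paralogues related to human interstitial collagenase, of which GENCODE types Mmp1a as a polymorphic pseudogene, had 2 counts each in the 9 libraries together, the enamel enzyme Mmp20 had 4, Mmp21 had 3, the matrilysin Mmp7 had 8, Mmp24 had 18 and Mmp27 had 59. Adamts13, the protease of von Willebrand factor, had 86 counts and Adamts19 had 73. No member lacked counts altogether. At this depth no difference between groups was detectable for them.

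**Figure D2:**
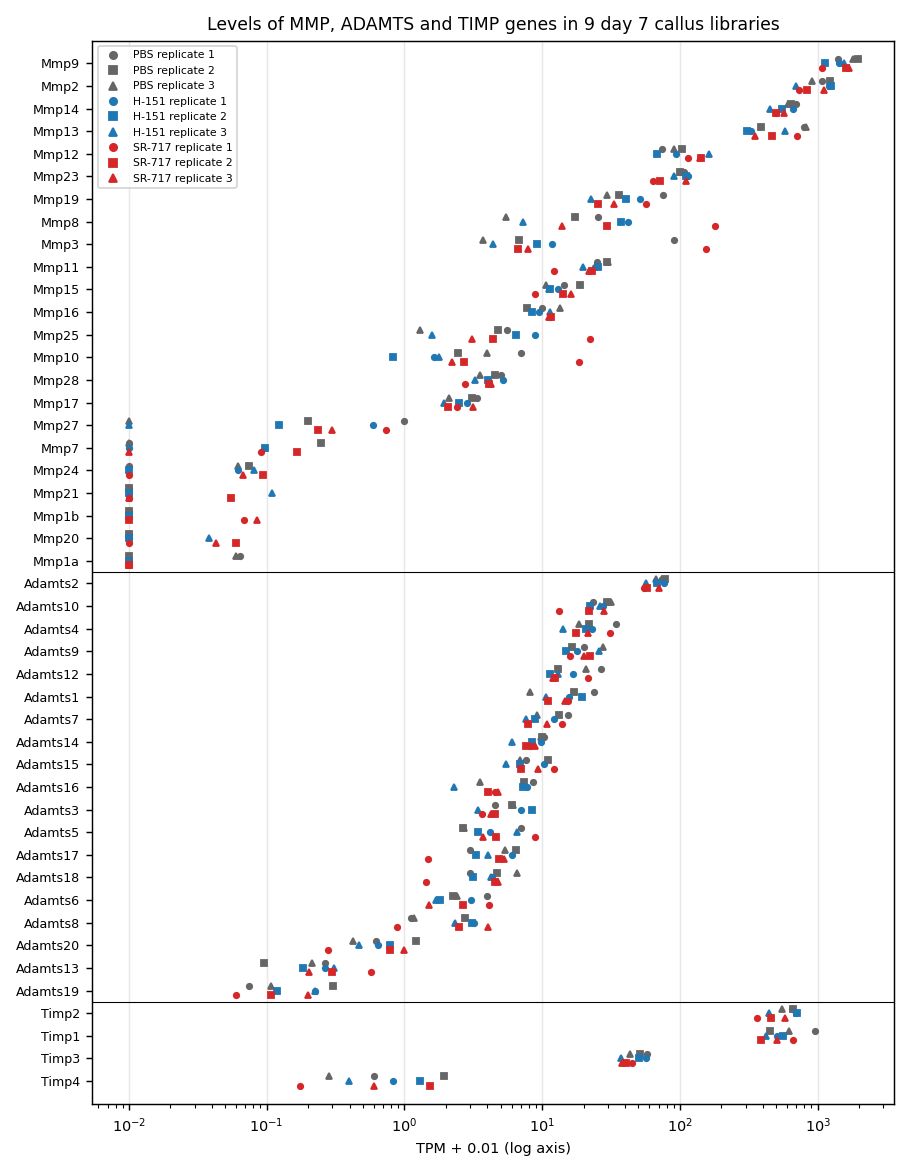
TPM + 0.01 on a log axis for all 46 members in all 9 libraries, ordered within MMPs, ADAMTS and TIMPs by the mean level; colour gives the group and symbol shape the replicate number. Mmp9, Mmp2, Mmp14, Mmp13, Timp2 and Timp1 lay above 300 TPM in every library, and Mmp3, Mmp8, Mmp10 and Mmp25 were spread widest among the members detected throughout.

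The spread between libraries differed greatly from member to member. From the lowest to the highest library the level changed by 41.4 times for Mmp3, 32.5 times for Mmp8, 22.6 times for Mmp10 and 17.5 times for Mmp25, a membrane-type MMP of neutrophils. The same ratio was 1.83 for Mmp9, 1.79 for Mmp2, 1.54 for Mmp14, 1.42 for Adamts2 and 1.54 for Timp3. Without SR-717 replicate 1 the ratio was 24.3 for Mmp3, 7.64 for Mmp8, 8.54 for Mmp10 and 6.91 for Mmp25. Without replicate 1 of both the SR-717 and the PBS group it was 3.15 for Mmp3 and 4.85 for Mmp10, so most of the range of Mmp3 came from these 2 libraries.

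Among the 37 members above 1 TPM in some library, SR-717 replicate 1 was the highest library for 7 and the lowest for 13. Over all 14112 genes above that level it was the highest for 20.18% and the lowest for 34.08%, close to the members' shares of 18.92% and 35.14%. PBS replicate 1 was the highest library for 11 members (29.73%), against 10.26% of all genes. In that library Mmp19, Mmp14, Adamts1, Adamts4, Adamts12, Timp1 and Timp3 all reached their highest value.

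**Figure D3:**
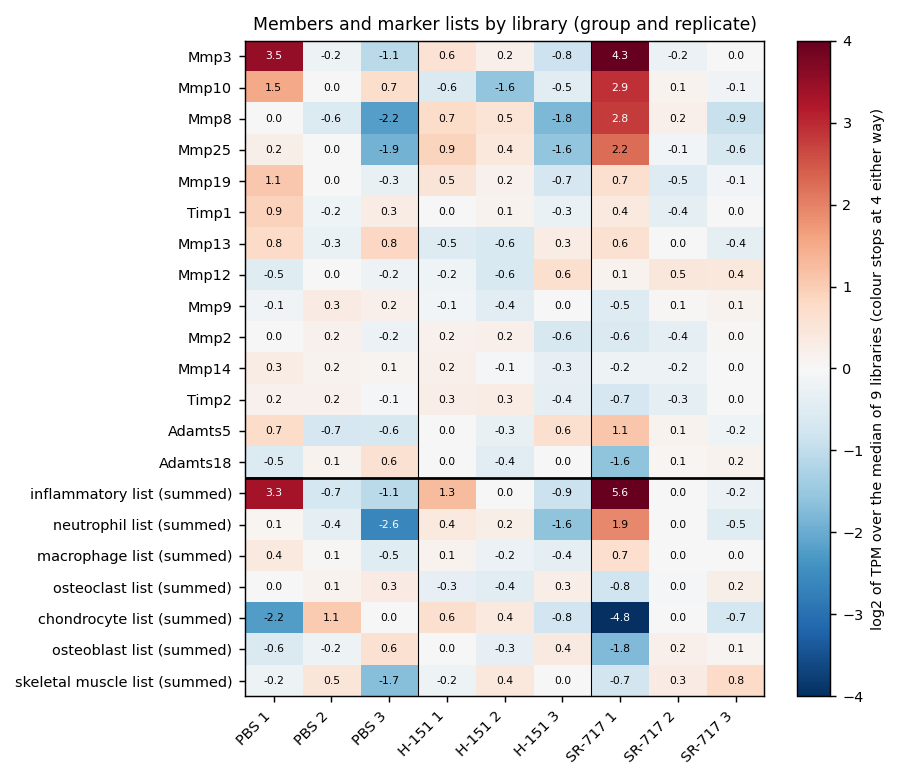
Log2 of the TPM of 14 members, and of the summed TPM of 7 marker lists, over the median of the 9 libraries, by library; colour stops at 4 either way and the printed figures are the log2 values. Mmp3, Mmp10, Mmp8 and Mmp25 were highest in SR-717 replicate 1, where the inflammatory and neutrophil lists were also highest and the chondrocyte list lowest.

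Only some marker lists varied as these members did. The neutrophil and macrophage lists were highest in SR-717 replicate 1 and lowest in PBS replicate 3, as Mmp8 and Mmp25 were. The chondrocyte and osteoclast lists were lowest in SR-717 replicate 1. The neutrophil list (8 genes, S100a8, S100a9, Ngp, Camp, Ltf, Cxcr2, Retnlg and Ly6g) summed to 9623, 7164 and 1490.0 TPM in PBS replicates 1 to 3, to 12040, 10740 and 2981 TPM in H-151, and to 34550, 9190 and 6562 TPM in SR-717. The chondrocyte list (6 genes) summed to 655, 6456 and 3099 TPM in PBS, 4786, 4096 and 1812 TPM in H-151, and 109, 3155 and 1921 TPM in SR-717. Osteoclast genes (7 genes, Acp5 and Ctsk the most abundant) summed to 7235 to 9136 TPM in PBS, 5332 to 8630.0 TPM in H-151 and 4137 to 8552 TPM in SR-717, and macrophage genes (6 genes) to 1014 to 1847, 1074 to 1548 and 1397 to 2244 TPM. In whole callus, a smaller number of cells of a type and less RNA per cell cannot be told apart. The part of these lists in the results on single members was not tested.

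Compared with PBS, SR-717 callus contained more Mmp12 transcript, and Mmp12 was the only member past the thresholds of an unadjusted p of 0.05 and a 1.5-fold change. Of the 46 members, 37 passed the filter on low counts and were tested by edgeR's quasi-likelihood test in the 6 SR-717 and PBS libraries. At these thresholds 1 member was called higher, where 0.27% of all 14070 genes tested were, and 0 members were called lower, where 0.249% were. At a Benjamini-Hochberg adjusted p under 0.05 in edgeR's test 0 members were called and 0% of all genes, and p before adjustment was under 0.05 for 1 member and 97 genes. DESeq2's Wald test called 2 members at the unadjusted thresholds, Mmp12 and Mmp8, and 0 at the adjusted one, and gave Mmp3 no p-value in any of the 3 comparisons.

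Mmp12, the elastase secreted mainly by macrophages, was at 74.5, 104 and 90.9 TPM in PBS replicates 1 to 3, at 93.3, 68.0 and 162 TPM in H-151, and at 115, 143 and 139 TPM in SR-717. Every SR-717 library lay above every PBS library, while the H-151 libraries spanned the range of both. Its log2 fold change in SR-717 against PBS was 0.71 (SE 0.17, n = 3 and 3), where edgeR gave an unadjusted p of 0.00547 and an adjusted p of 0.9999. Blocked by replicate number, the log2 fold change was 0.72 (SE 0.16) and the unadjusted p of edgeR's test was 0.0072, and the same-numbered ratios of SR-717 to PBS were 1.55, 1.37 and 1.53. Without PBS replicate 1, the lowest library, the change was 0.58 on the log2 scale, below 1.5-fold, and without SR-717 replicate 1 it was 0.73. With all 9 libraries in 1 fit it was 0.71 (SE 0.35, unadjusted p = 0.0745 in edgeR's test), which lost the call. In H-151 against PBS the log2 fold change was 0.33 (SE 0.39), and in SR-717 against H-151 it was 0.38 (SE 0.38). Mmp12 (ENSMUSG00000049723, chr9:7344381-7369499, plus strand) overlaps Mmp1b on the minus strand over 1261 bases, and whether the authors counted reads by strand is not stated. The macrophage list summed to 1847, 1464 and 1014 TPM in PBS and to 2244, 1407 and 1397 TPM in SR-717, which overlapped. Its part in the Mmp12 values was not tested.

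The TPM ranges of SR-717 and PBS did not overlap for 5 of the 37 members tested, against 5.25% of all genes tested. Besides Mmp12 these were Mmp11, Mmp14, Adamts3 and Adamts14, all lower in SR-717. Mmp11, also called stromelysin-3 and known from remodelling stroma, was at 24.96, 29.4 and 30.2 TPM in PBS, 24.0, 25.4 and 19.9 TPM in H-151, and 12.1, 23.2 and 21.9 TPM in SR-717. Its lowest PBS library lay just above its highest SR-717 library, with a log2 fold change of -0.47 (SE 0.25) and an unadjusted p of 0.109 in edgeR's test. Mmp14 was at 698, 637 and 611 TPM in PBS, 659, 549.6 and 452 TPM in H-151, and 501, 496 and 572 TPM in SR-717, a log2 fold change of -0.22 (SE 0.16) in SR-717 against PBS. The procollagen N-propeptidases Adamts3 and Adamts14 had log2 fold changes of -0.38 (SE 0.20) and -0.19 (SE 0.15). None of these 4 passed the thresholds.

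**Figure D4:**
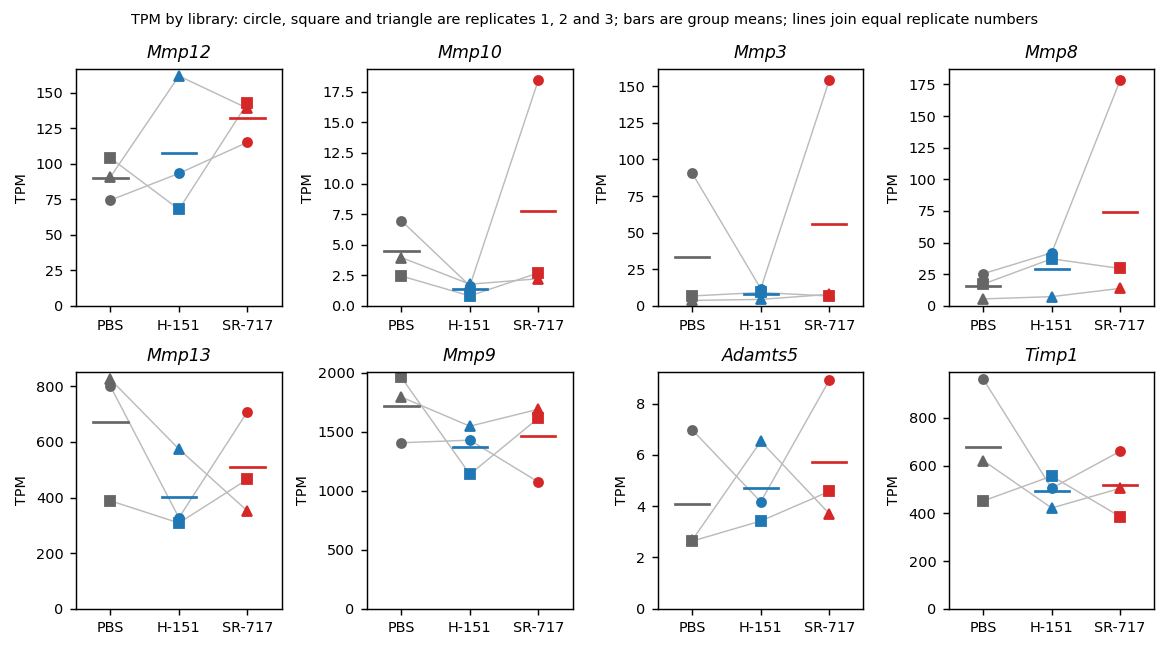
TPM of 8 members by group on linear axes from 0, with circles, squares and triangles for replicates 1, 2 and 3, horizontal bars for group means and grey lines between equal replicate numbers. All 3 SR-717 libraries lay above the PBS libraries for Mmp12, all 3 H-151 libraries lay below the PBS libraries for Mmp10, and SR-717 replicate 1 set the SR-717 mean of Mmp3, Mmp8 and Mmp10.

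Mmp8, the neutrophil collagenase, was at 25.4, 17.2 and 5.49 TPM in PBS, 41.9, 37.2 and 7.275 TPM in H-151, and 178, 29.6 and 13.8 TPM in SR-717. Within each replicate number the order was the same for PBS against both drugs: the ratios of SR-717 to PBS were 7.02, 1.72 and 2.515, and those of H-151 to PBS were 1.65, 2.16 and 1.33, although the groups overlapped. These ratios share the PBS libraries. The log2 fold change in SR-717 against PBS was 2.39 (SE 1.07) with an unadjusted p of 0.0638, 0.53 (SE 0.64) without SR-717 replicate 1, and 1.06 (SE 0.64) without replicate 1 of both groups, all in edgeR's test. The neutrophil marker sum given above was highest in SR-717 replicate 1 and lowest in PBS replicate 3, as Mmp8 was, and in every number it was higher for SR-717 than for PBS. Mmp25, also a neutrophil enzyme, was at 5.52, 4.73 and 1.28 TPM in PBS, 8.85, 6.405 and 1.575 TPM in H-151, and 22.4, 4.39 and 3.06 TPM in SR-717. Its log2 fold change in SR-717 against PBS was 1.56 (SE 0.90) with an unadjusted p of 0.132, and the groups overlapped. It was 0.06 (SE 0.59) without SR-717 replicate 1 and 0.43 (SE 0.62) without replicate 1 of both groups.

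Libraries with the same number in SR-717 and PBS deviated from their group means together, and blocking by the number changed the calls. Replicate 1 lay apart in both groups, and differently numbered libraries were not compared. Whether the numbers mark pairs was therefore not established. With the number as a block, edgeR's test called 4 members higher at the unadjusted thresholds, Mmp12, Mmp8, Mmp3 and Adamts5, against 2.43% of all genes, and 0 lower, against 0.718%. Mmp8 then had a log2 fold change of 1.73 (SE 0.46, unadjusted p = 0.0137 in edgeR's test). Mmp3, or stromelysin-1, had 0.71 (SE 0.23, unadjusted p = 0.027 in edgeR's test), although it was not higher in every number. The ratios of SR-717 to PBS for Mmp3 were 1.70, 0.993 and 2.11. Adamts5, an aggrecanase of cartilage, had 0.64 (SE 0.18, unadjusted p = 0.0179 in edgeR's test), against 0.61 (SE 0.53, unadjusted p = 0.287) without the block and 0.08 (SE 0.49) without SR-717 replicate 1. Its TPM was 6.97, 2.64 and 2.68 in PBS, 4.17, 3.42 and 6.53 in H-151, and 8.91, 4.58 and 3.71 in SR-717, so that each SR-717 library lay above the PBS library of its number by 1.28, 1.73 and 1.38 times while the groups overlapped. Mmp11 had -0.50 (SE 0.18, unadjusted p = 0.0437 in edgeR's test), short of 1.5-fold. The smallest adjusted p of these members with the block was 0.999 in edgeR's test.

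Stromelysin-1 gave the widest range of all. Mmp3 was at 90.4, 6.77 and 3.72 TPM in PBS, 11.7, 9.14 and 4.41 TPM in H-151, and 154, 6.72 and 7.87 TPM in SR-717. SR-717 replicate 1 and PBS replicate 1 were far above the other 7 libraries, and these were the libraries with the highest inflammatory sums. In edgeR's test without a block the log2 fold change in SR-717 against PBS was 0.93 (SE 1.63, unadjusted p = 0.588). It was -2.15 without SR-717 replicate 1 and 3.60 without PBS replicate 1, so its direction was set by single libraries.

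Compared with PBS, H-151 callus contained less Mmp10 transcript, and Mmp10 was the only member past the unadjusted thresholds. Of 38 members tested, 1 was called lower, against 0.163% of all 14085 genes tested, and 0 were called higher, against 0.263%. At an adjusted p under 0.05 in edgeR's test 0 members and 0% of all genes were called, and p before adjustment was under 0.05 for 1 member and 91 genes. DESeq2's Wald test called Mmp10 at the unadjusted thresholds and 0 members at the adjusted one. The ranges of H-151 and PBS did not overlap for 1 of the 38 members, Mmp10, against 3.32% of all genes tested. These values share the PBS libraries with those of SR-717 against PBS.

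Mmp10, or stromelysin-2, which can activate procollagenases, was at 6.96, 2.44 and 3.95 TPM in PBS, 1.64, 0.815 and 1.77 TPM in H-151, and 18.45, 2.69 and 2.22 TPM in SR-717. Every H-151 library lay below every PBS and every SR-717 library. The log2 fold change in H-151 against PBS was -1.62 (SE 0.51, n = 3 and 3), where edgeR gave an unadjusted p of 0.0156 and an adjusted p of 0.9999. With the replicate block it was -1.59 (SE 0.33, unadjusted p = 0.0034 in edgeR's test), and H-151 was at 0.235, 0.334 and 0.448 times PBS in the 3 numbers. Without PBS replicate 1, the highest PBS library, the log2 fold change was -1.16 (unadjusted p = 0.0545 in edgeR's test), and with all 9 libraries in 1 fit it was -1.62 (SE 0.88, unadjusted p = 0.101 in edgeR's test), so the call was lost in both. The gene was counted 15 to 369 times in a library. Mmp10 is ENSMUSG00000047562, at chr9:7502352-7510240 on the plus strand.

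With the replicate block, edgeR's test of H-151 against PBS called 2 members lower, Mmp10 and Mmp13, against 0.433% of all genes, and 2 higher, Mmp8 and Adamts8, against 1.43%. Mmp13, the main fibrillar collagenase of the mouse skeleton, was at 799.8, 388 and 825 TPM in PBS, 327, 308 and 574 TPM in H-151, and 709, 466 and 352 TPM in SR-717. PBS replicate 2 lay within the range of H-151, and H-151 was at 0.409, 0.794 and 0.696 times the PBS library of the same number. The log2 fold change of Mmp13 was -0.69 (SE 0.43, unadjusted p = 0.155) without the block and -0.69 (SE 0.25, unadjusted p = 0.0364) with it, both in edgeR's test. In SR-717 against PBS it was -0.30 (SE 0.43). Mmp13 was at 709 TPM in SR-717 replicate 1 and at 799.8 TPM in PBS replicate 1. In these libraries the chondrocyte, hypertrophic chondrocyte (Col10a1 and Ihh) and osteoblast lists had their lowest sums. The hypertrophic list summed to 5.00 and 107 TPM there, and the osteoblast list to 1165 and 2661 TPM. The part of these cells in the Mmp13 values was not tested.

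Mmp8 in H-151 against PBS had a log2 fold change of 0.83 (SE 0.68, unadjusted p = 0.265) without and 0.78 (SE 0.17, unadjusted p = 0.0045) with the block, both in edgeR's test, and the neutrophil sum of each H-151 library also lay above that of the PBS library of its number. Adamts8, a proteoglycanase, was at 1.11, 2.73 and 1.16 TPM in PBS, 3.20, 3.09 and 2.315 TPM in H-151, and 0.878, 2.46 and 4.06 TPM in SR-717. The H-151 values overlapped the PBS values only through PBS replicate 2, and the ratios to PBS were 2.88, 1.13 and 2.00. The log2 fold change of Adamts8 was 0.80 (SE 0.37, unadjusted p = 0.0655) without and 0.90 (SE 0.30, unadjusted p = 0.0268) with the block, both in edgeR's test. Adamts7 and Adamts12, which cut the cartilage protein COMP, were both lower in H-151 than in PBS in all 3 numbers, with blocked log2 fold changes of -0.37 (SE 0.13) and -0.50 (SE 0.16), short of 1.5-fold.

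Between the drugs, SR-717 callus contained more Mmp10 than H-151 callus. Of 39 members tested, 1 was called higher in SR-717, against 0.367% of all 14151 genes tested, and 0 were called lower, against 0.389%. At an adjusted p under 0.05 in edgeR's test 0 members and 0% of all genes were called, and p before adjustment was under 0.05 for 1 member and 146 genes. DESeq2's Wald test also called Mmp10 alone at the unadjusted thresholds and 0 members at the adjusted one. Ranges did not overlap for 1 of the 39 members, Mmp10, against 4.12% of all genes tested. The log2 fold change of Mmp10 was 2.58 (SE 0.96), where edgeR gave an unadjusted p of 0.035 and an adjusted p of 0.996. Without SR-717 replicate 1 it was 0.83 (unadjusted p = 0.0984 in edgeR's test). Leaving out H-151 replicate 1, 2 or 3 gave unadjusted p-values of 0.0855, 0.105 and 0.0655 in edgeR's test, so 4 of the 6 libraries were each needed for the call. Mmp3 had a log2 fold change of 2.91 (SE 1.32, unadjusted p = 0.0667 in edgeR's test), and -0.15 without SR-717 replicate 1. Mmp8 had 1.55 (SE 1.07), and -0.30 without that library.

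**Figure D5:**
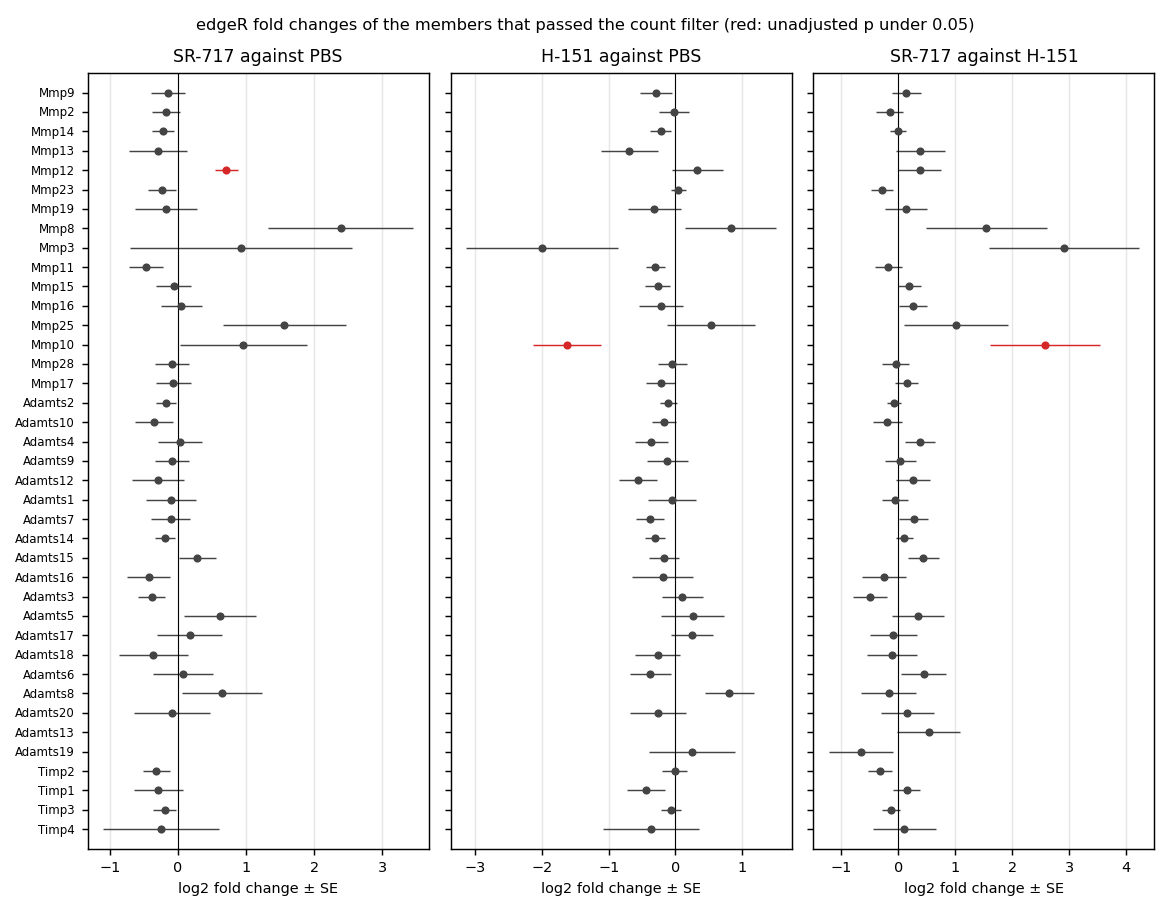
Log2 fold changes with standard errors from edgeR's quasi-likelihood test for the members that passed the count filter, in SR-717 against PBS, H-151 against PBS and SR-717 against H-151, with unadjusted p under 0.05 in red. Mmp12 is red in the first panel and Mmp10 in the other 2. Mmp3, Mmp8, Mmp10 and Mmp25 have the widest error bars in SR-717 against PBS and in SR-717 against H-151. In H-151 against PBS Mmp3 has the widest, followed by Timp4. Most other members lie within 0.5 of 0.

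The most abundant enzymes had small fold changes. Mmp9 was at 1406, 1959 and 1793 TPM in PBS, 1428, 1139 and 1546 TPM in H-151, and 1074, 1615 and 1689.9 TPM in SR-717. The groups overlapped, with log2 fold changes of -0.15 (SE 0.25) for SR-717 and -0.29 (SE 0.24) for H-151 against PBS. Mmp2 was at 1080.3, 1226 and 911 TPM in PBS, 1212, 1243 and 696 TPM in H-151, and 729, 835 and 1105 TPM in SR-717, which also overlapped. Its log2 fold changes were -0.17 (SE 0.21) and -0.03 (SE 0.22) against PBS.

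Summed over the 23 genes, the MMPs reached 4429, 4545 and 4435 TPM in PBS, 4005, 3564 and 3606 TPM in H-151, and 3660.0, 3750.0 and 4084 TPM in SR-717. All 3 PBS libraries lay above all 6 libraries of treated mice, with means of 4470.0 ± 65.3, 3725 ± 243 and 3831 ± 223 TPM (SD, n = 3). Because Mmp9, Mmp2, Mmp14 and Mmp13 make up most of this sum, it is a statement about those 4 genes. With all libraries kept and no block, none of them passed a test at the unadjusted thresholds. Mmp13 passed in H-151 against PBS without H-151 replicate 3 and without PBS replicate 2. The sum is given as a description without a test. After division by the library's TMM scaling factor, a choice made after seeing the data, the sums ran from 4294 to 4552 in PBS, from 3471 to 3756 in H-151 and from 3796 to 4090.0 in SR-717. The summed ADAMTS level was 268, 244 and 228 TPM in PBS, 247, 213 and 192 TPM in H-151, and 212, 194.5 and 225 TPM in SR-717. All SR-717 libraries lay below all PBS libraries, while H-151 overlapped PBS, and after division by the TMM factor the libraries of both treated groups (197 to 231) lay below those of PBS (234.5 to 259.9).

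Each of the 4 inhibitors overlapped between groups. Timp1, the TIMP most readily induced by inflammation and growth factors, was at 963, 452 and 621 TPM in PBS, 505, 556 and 422 TPM in H-151, and 660.3, 386 and 505 TPM in SR-717. PBS replicate 1 was its highest library. Timp2, which also takes part in the activation of pro-Mmp2 by Mmp14, was at 651, 659.7 and 554 TPM in PBS, 692, 711 and 441 TPM in H-151, and 364, 457 and 581 TPM in SR-717. Timp3, bound to the matrix, ran from 37.3 to 57.4 TPM over the 9 libraries, and Timp4 from 0.164 to 1.93 TPM. In SR-717 against PBS the log2 fold changes were -0.29 (SE 0.36) for Timp1, -0.32 (SE 0.20) for Timp2, -0.19 (SE 0.17) for Timp3 and -0.25 (SE 0.85) for Timp4. In H-151 against PBS they were -0.45 (SE 0.29), -0.01 (SE 0.19), -0.07 (SE 0.15) and -0.36 (SE 0.72). None of these passed the threshold. The summed TIMP level was 1672, 1165 and 1219 TPM in PBS, 1255, 1318 and 901.5 TPM in H-151, and 1069, 885 and 1125 TPM in SR-717, so that SR-717 lay below PBS without overlap and H-151 overlapped both. After division by the TMM factor the lowest PBS library (1146) and the highest SR-717 library (1144) nearly met. The sum, like that of the MMPs, is a description without a test, and its ratio to the summed MMP level lay between 0.236 and 0.378 in all 9 libraries.

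Of the remaining aggrecanases and proteoglycanases, Adamts4 ran from 14.1 to 34.1 TPM, Adamts1 from 8.115 to 23.8 TPM and Adamts9 from 14.9 to 27.8 TPM, and the groups overlapped. Mmp19, a basement membrane and stromal enzyme, was highest in PBS replicate 1 at 75.3 TPM, next in SR-717 replicate 1 at 56.4 TPM and lowest in H-151 replicate 3 at 22.5 TPM. Adamts18 was lowest in SR-717 replicate 1 at 1.42 TPM and ran from 2.96 to 6.52 TPM in the other 8 libraries. Mmp16, a membrane-type MMP of mesenchymal cells, ran from 7.72 to 13.5 TPM.

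Over all members tested, 12 of 37 had a positive log2 fold change in SR-717 against PBS, with a median of -0.10, where 52.25% of all genes were positive with a median of 0.01. In H-151 against PBS 9 of 38 were positive, with a median of -0.20, where 44.16% of all genes were positive with a median of -0.02. Between SR-717 and H-151 23 of 39 were positive, with a median of 0.13, where 53.44% of all genes were positive with a median of 0.02. By role, the gelatinases (0 of 2 positive) and the 4 inhibitors (0 of 4) had negative values against PBS for both drugs. The COMP-cleaving pair Adamts7 and Adamts12 (0 of 2) did too. In H-151 those of Mmp2 (-0.03) and Timp2 (-0.01) were small beside their SE. Macrophage elastase was positive for both drugs. Of the collagenases tested, Mmp8 was positive and Mmp13 negative for both. Mmp25, Adamts5, Adamts8 and Adamts17, of other roles, were also positive for both. The comparisons with PBS share their control libraries.

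Other genes that activate or restrain these enzymes were set beside them. Of 33 such genes (plasminogen activators and their inhibitors, proprotein convertases, ADAMTS-like proteins, ADAMs and procollagen-processing enzymes) 30 were tested in each comparison, and edgeR gave 0 of them p under 0.05 before adjustment. The smallest unadjusted p was 0.132 in SR-717 against PBS and 0.0877 in H-151 against PBS, both for Bmp1, the procollagen C-proteinase, and 0.0866 in SR-717 against H-151, for Adam19. Bmp1 was at 308, 309.6 and 308 TPM in PBS, 273, 224 and 239.6 TPM in H-151, and 221, 224 and 274 TPM in SR-717, so that all treated libraries lay below all PBS libraries.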

How the data were processed

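RNA of mouse callus was poly(A)-selected and sequenced as dUTP strand-marked paired-end libraries, per the labels. The authors deposited 1 table with expected counts per gene, not normalized, and TPM, scaled by the authors for length and to a fixed total. The build named in the submitters' processing notes is mm10. The aligner, the counting program and the annotation are not given in the sources used here. Expected counts were not whole for 5 of the members (Mmp19, Mmp24, Mmp28, Adamts4 and Adamts13) in some library and were rounded to whole numbers. All columns of per-sample values were read.

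Tests were run over all genes by the quasi-likelihood method of edgeR 4.0.16 (R 4.3.3; default filterByExpr, TMM scaling, functions glmQLFit and glmQLFTest). Each comparison used its own 6 libraries and no covariate, and p-values were adjusted by Benjamini-Hochberg over all genes tested. Standard errors were derived from the F statistic. The thresholds of 0.05 and 1.5-fold are those of the study, whose methods do not say whether p was adjusted. The script was tested on simulated counts. DESeq2 1.42.0, its size factors, no filter, a minimum mean count of 50, 1 fit of all 9 libraries, a 2-fold threshold, the replicate block and leaving out each library were alternatives. With 3 libraries a group, an exact permutation test of a single value cannot go below 0.1, so none is given.

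The replicate numbers come from the labels, which do not say what they stand for. Deviations from the group means of same-numbered libraries correlated across genes by 0.65, 0.341 and 0.139 for numbers 1 to 3 in SR-717 and PBS. In H-151 and PBS they correlated by 0.305, 0.485 and 0.503. The number was used as a block on this basis, although differently numbered libraries were not compared and pairing was not established. No 2 libraries of a group agreed within sampling noise (chi-square per gene of at least 25.5).

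Named members were those with an unadjusted p under 0.05, those whose groups did not overlap with at least a 1.5-fold change, the 5 MMPs, 5 ADAMTS and all TIMPs of highest mean TPM, and members known from callus, cartilage or bone. Others named (Adamts3, Adamts8, Adamts14, Adamts18, Mmp11 and Mmp23, those at or near 0, and Bmp1 and Adam19) were chosen after their values were seen. The members, the role lists and the marker lists were chosen with earlier results of these data known. Sequences and start sites are from RefSeq (GRCm38.p6) and gene positions from GENCODE (GRCm38), matched by Ensembl identifier for all 46 members. Mmp11, Mmp19, Mmp24, Mmp28, Adamts4, Adamts7, Adamts9, Timp1, Timp3 and Timp4 overlap a protein-coding gene on the opposite strand. Their counts are uncertain if strand was not used. Timp2 overlaps a protein-coding gene on its own strand, so its count is uncertain either way.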

Additional observations from a re-analysis of the deposited data

How the results depend on the processing

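Depth and 3 libraries a group limit these results: at the default filter 7 to 9 members were too low to be tested, and no member reached an adjusted p under 0.05 in any comparison or setting, including the one without a filter, which tested 45 or 46 members. For the count of members higher in SR-717 than in PBS (1), a 2-fold threshold gave 0, DESeq2's Wald test 2, the replicate block 4, leaving out replicate 1 of both groups (chosen after seeing the data) 2, and leaving out single libraries 1 to 2. All 9 libraries in 1 fit also gave 1, but Mmp8 in place of Mmp12, and without PBS replicate 1 the called member was Adamts5. Of members lower in SR-717 than in PBS (0), leaving out single libraries gave 0 to 1. For H-151 against PBS, the count higher (0) was 2 with the replicate block and 0 to 1 without single libraries, and the count lower (1) was 0 with all 9 libraries in 1 fit, 2 with the replicate block, 0 without PBS replicate 1 and up to 4 without PBS replicate 2. For SR-717 against H-151, the count higher (1) was 0 with the replicate block and 0 to 2 without single libraries, and the count lower (0) was 0 to 2. There the deviations of same-numbered libraries correlated by 0.342, 0.0621 and 0.0793, and the libraries were not treated as paired. With the block, Mmp10 had a log2 fold change of 1.95 (unadjusted p = 0.0658 in edgeR's test).

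Named log2 fold changes that turned sign were those of Timp2 in H-151 against PBS at a mean count of at least 50 (0.0032) and of Mmp10 in SR-717 against PBS without replicate 1 of both groups (-0.32). Leaving out single libraries turned the sign, with ranges in SR-717 against PBS of -0.80 to 1.42 for Mmp10, -2.15 to 3.60 for Mmp3, -0.28 to 0.0064 for Mmp9 and -0.56 to 0.035 for Timp1. In H-151 against PBS the ranges were -2.52 to 0.68 for Mmp3, -0.25 to 0.60 for Mmp12, -0.16 to 0.14 for Mmp2, -0.12 to 0.12 for Timp2 and -0.13 to 0.034 for Timp3. In SR-717 against H-151 they were -0.15 to 3.44 for Mmp3, -0.30 to 2.05 for Mmp8 and -0.48 to 1.46 for Mmp25. The cause was not tested beyond the libraries left out. Over the alternatives that keep all libraries of a comparison, 209 of the other values of the 38 named fold changes kept their direction and their side of the threshold, 12 passed it, 3 no longer did and 1 reversed. DESeq2 gave Mmp3 no p-value, so its 3 values are not among these. In CPM after TMM normalization in place of TPM, SR-717 replicate 1 was highest for 9 and lowest for 10 members and PBS replicate 1 highest for 10.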

Other observations

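Besides Mmp3 and Mmp10, some pericellular genes outside the families were high in SR-717 replicate 1, and others were low there. Adam8, a membrane proteinase of myeloid cells and osteoclasts, was at 63.8, 34.3 and 19.1 TPM in PBS, 50.02, 29.5 and 16.7 TPM in H-151, and 156, 23.8 and 25.5 TPM in SR-717. Plaur, the urokinase receptor, was at 113, 78.9 and 48.8 TPM in PBS, 71.9, 76.6 and 46.1 TPM in H-151, and 175, 49.8 and 66.9 TPM in SR-717. Serpinb2, an inhibitor of plasminogen activators made by activated monocytes, was at 14.9 TPM in SR-717 replicate 1, 1.44 TPM in PBS replicate 1 and at most 0.457 TPM in the other 7 libraries. For Adam8 and Plaur the other SR-717 libraries lay within the range of PBS. Other genes of the same lists were lowest in SR-717 replicate 1, among them Serpine2 (378 TPM), Pcsk6 (23.7 TPM), Bsg (611 TPM), Pcolce (431 TPM) and Pcolce2 (2.02 TPM). Over all genes above 1 TPM in some library, that library was the highest for 20.18% and the lowest for 34.08%. All genes named here were chosen after their values were seen, and no explanation was tested.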
